A study of Mus musculus with 95 samples.

Results

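Libraries 91 to 100 are 10 of the 95 RNA-seq libraries of mouse pancreatic islets in this series, and they are described here beside the other 85. They were picked out by their title numbers, as a run that an earlier look at the same data had found to be high in lymphocyte and antigen presentation genes. Since values of these libraries chose the run, the differences below are a description of it and carry no test. All 95 libraries came from islets, the clusters of hormone-secreting cells in the pancreas, of mice of the founder strains of the Diversity Outbred (DO) population, and all shared a diet high in fat and sugar (45% fat). The labels give neither strain nor sex for any library, nor whether 2 libraries came from different animals, so no library could be placed in a group and the libraries are not treated as replicates of a condition. Libraries 91 to 100 held 20566736 to 32290848 counts, against 16411809 to 34357253 in the other 85, so the run's depth lay within that of the others.

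Islets consist mainly of insulin-secreting beta cells, with alpha cells (glucagon), delta cells (somatostatin) and a dense capillary net, and digestive-enzyme-making acinar cells often come along when islets are isolated. Resident macrophages are the usual islet leukocytes. T cells recognise peptides held by major histocompatibility complex (MHC) proteins, class I on most cells and class II mainly on B cells, macrophages and dendritic cells, and B cells carry membrane antibody until they become plasma cells that secrete it. In inflamed tissue, lymphocytes can gather in aggregates with high endothelial vessels and lymphoid chemokines, as in the lymph nodes that lie along the pancreas.

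The label of the run, immune-rich, was first set beside its 3 markers, given as CPM (the count of a gene divided by the total of its library, times 1000000). Cd3e, a chain of the T cell receptor complex, had 14.6, 22.9, 5.91, 0.438, 3.05, 1.95, 88.1, 27.5, 41.1 and 46.0 CPM in libraries 91 to 100 in that order, against a median of 0.0747 CPM and a highest value of 5.65 CPM (library 85) in the other 85. Library 94 held only 9 Cd3e counts, which gives a 95% exact Poisson interval of 0.200 to 0.831 CPM and it lay inside the range of the others, as did 95 and 96. Intervals cover counting error only. Ighm, the constant part of IgM antibody, had 834, 2233, 254, 47.3, 94.9, 25.3, 2845, 927, 3221 and 861 CPM in the run, against 1.16 to 1631 CPM (library 74) and a median of 4.15 CPM in the others. Cd74, the invariant chain and a chaperone of class II molecules, had 1215, 1973, 685, 148, 367, 299, 4826, 1863, 3171 and 4014 CPM, against 40.7 to 807 CPM (library 90) and a median of 128 CPM in the others. Every library of the run was above the others' median for all 3 markers, but library 94 was inside their range for each of them.

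**Figure D1:**
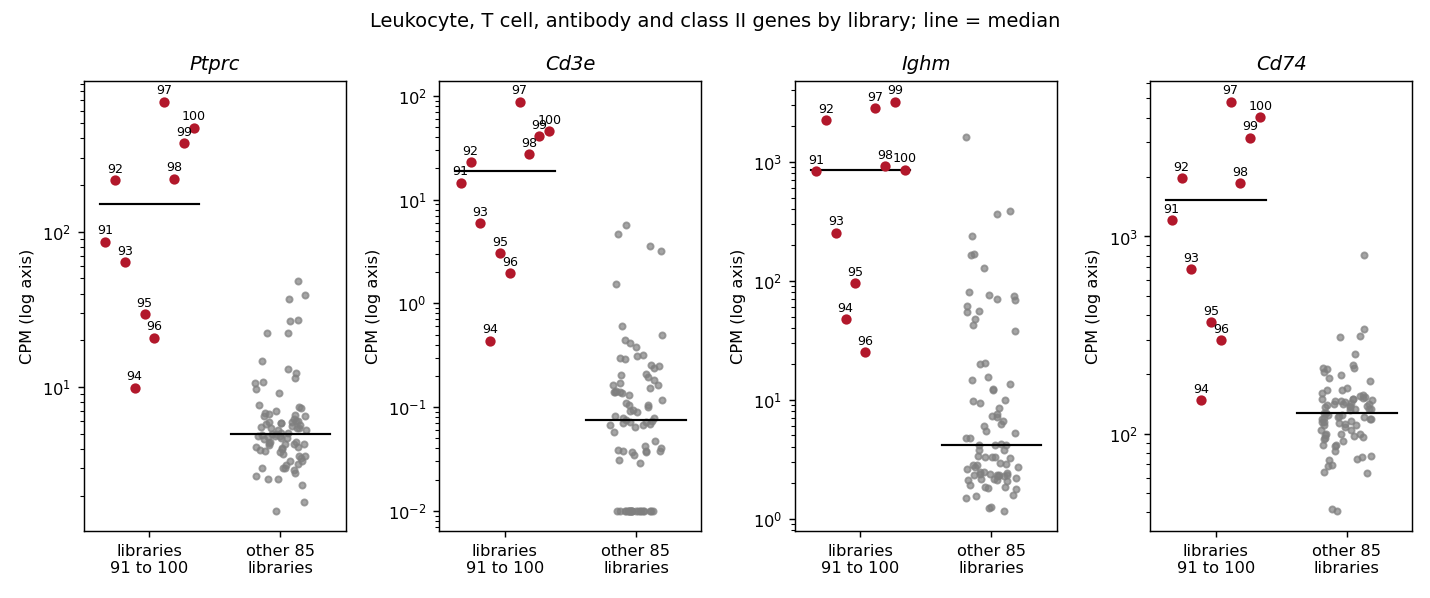
CPM (log axis) of Cd3e, Ighm and Cd74 and of Ptprc, the pan-leukocyte phosphatase CD45, with libraries 91 to 100 labelled by number left of the other 85, one point per library, lines at the medians and values of 0 drawn at 0.01. Cd3e in the run spans 0.438 CPM (library 94) to 88.1 CPM (library 97), and the highest of the others reaches 5.65 CPM.

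The same split ran through the immune genes as a whole. Differences between the run and the others are given as the log2 ratio of their median CPM, each plus 0.5 CPM, which understates the ratio of genes with low values. Among 15281 autosomal genes with at least 1 CPM in at least 10 libraries, 1596 had a median in the run at least 2-fold that of the others (10.4%) and 307 a median at least 2-fold lower (2.01%). In 14 lists of immune genes, 171 of the 192 genes that passed that filter were at least 2-fold higher in the run and 0 at least 2-fold lower, with a median log2 ratio of 3.56 beside −0.05 over all genes. In 14 lists of other cell types and processes, 55 of 164 were 2-fold higher and 8 lower, with a median of 0.20. The filter's 10 libraries match the size of the run, so a gene near 0 in the others can pass through the run alone. That favours higher over lower genes in these counts. With at least 1 CPM required in 50 libraries, 976 genes were 2-fold higher and 293 lower. The rule also chose the run on such genes, so nothing is read from these counts beyond their description.

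Libraries of the run differed widely among themselves. The median log2 ratio of the 192 immune genes to the others' median was 2.97, 4.02, 2.37, 0.44, 1.59, 1.15, 5.37, 4.01, 4.68 and 5.11 in libraries 91 to 100. Libraries 97, 100 and 99 were the highest, and 7 of the 10 exceeded all 85 others by this measure. Of the other libraries, 14 exceeded library 94, 3 exceeded library 96 and 1, library 90 at 1.61, exceeded library 95. Library 94 had the lowest value of the run for 158 of the 192 genes, and library 97 the highest for 157. The label immune-rich thus describes libraries 91, 92, 93 and 97 to 100. Libraries 94, 95 and 96 carry it at a level that some libraries outside the run also reach. Since such genes chose the run, this describes the label and is no independent check of it.

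**Figure D2:**
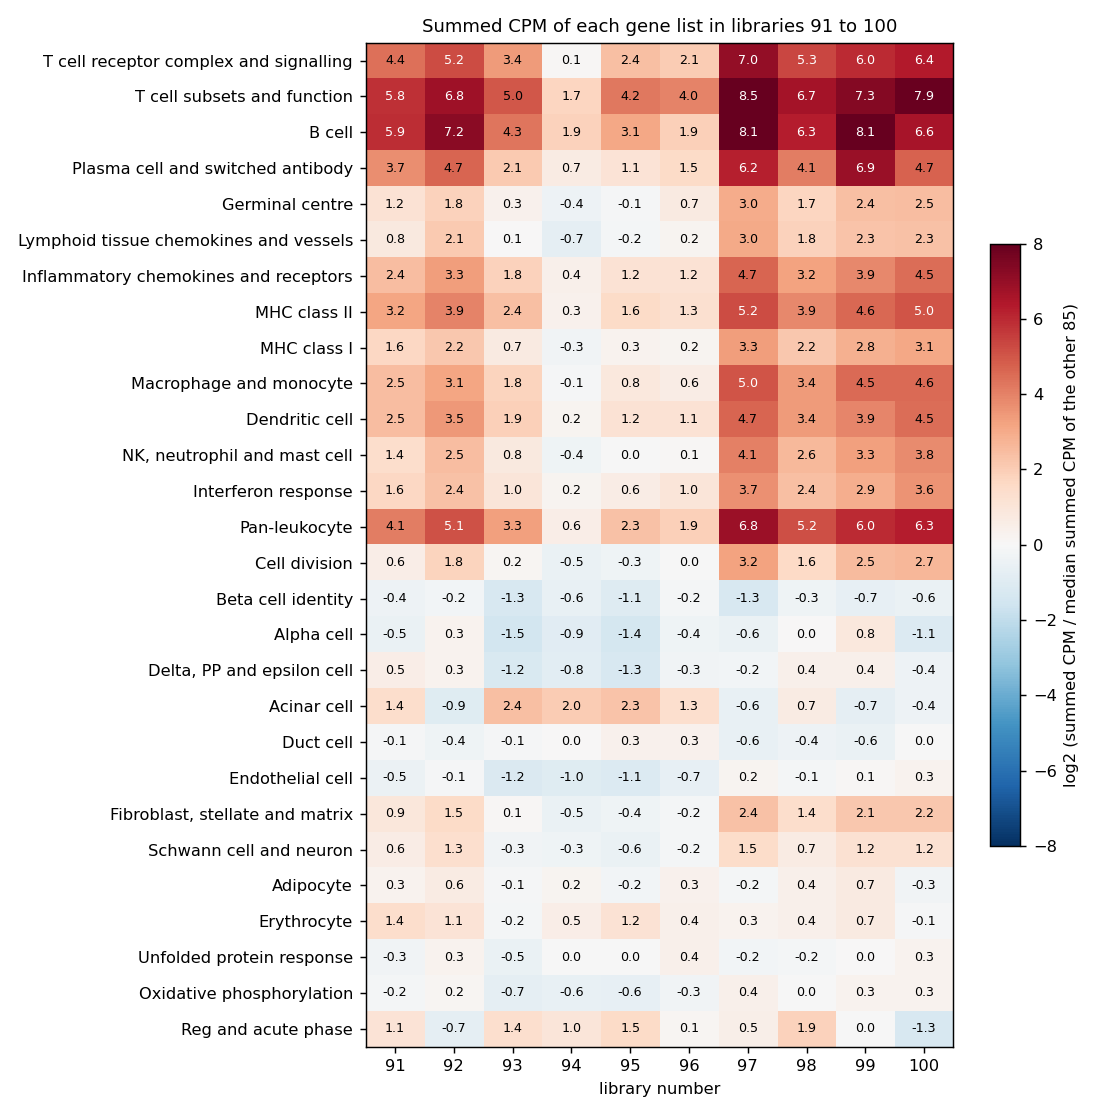
Log2 ratio of each list's summed CPM to its median sum in the other 85 libraries, in colour and figures, by list (rows) and by library of the run (columns 91 to 100). Pan-leukocyte sums lie between 0.56 (library 94) and 6.82 (library 97), and the beta cell sums lie below 0 in all 10 libraries.

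T cell genes were higher throughout. All 17 measured genes of the receptor complex and its signalling were at least 2-fold higher in the run, with a median log2 ratio of 4.65, led by Trbc2, a constant part of the receptor's beta chain, at 5.58, whose reads may be split with its near copy Trbc1. Thy1, a surface protein that neurons and fibroblasts also make, had the smallest ratio at 2.60. Summed over the list, the run held 12.9 CPM (library 94) to 1581 CPM (library 97) with a median of 347 CPM, against 3.18 to 127 CPM and a median of 11.9 CPM in the others. This is a 122-fold span within the run, and 7 of its libraries lay above all others. In bulk RNA, more cells of a type and more RNA per cell cannot be told apart, here or in any list below.

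Helper and cytotoxic T cell genes were both present. Cd4, the coreceptor of helper T cells that mouse dendritic cells can also make, spanned 1.75 to 196 CPM with a median of 44.3 CPM in the run, against 0 to 11.7 CPM and a median of 0.288 CPM in the others. Cd8a, the coreceptor of cytotoxic T cells, spanned 0.583 to 120 CPM with a median of 20.1 CPM, against 0 to 6.57 CPM and a median of 0.111 CPM. Of the 24 genes of the T cell subset list, 17 had deposited counts and 12 passed the filter. Gzma, Gzmk, Prf1 and Ifng, genes of T cell effector function, had no deposited counts. All 12 genes that passed were 2-fold higher, with Il2ra, the high-affinity interleukin-2 receptor chain, lowest at 2.21. Among the genes of the T cell lists, 2 inhibitory receptors came nearest to separating the run from the others. Ctla4, a brake on T cell activation, had 14.5, 37.1, 10.8, 0.924, 8.42, 6.00, 64.6, 21.3, 40.4 and 66.5 CPM in libraries 91 to 100, against 0 to 5.09 CPM in the others. Lag3, a receptor that binds class II molecules, had 18.3, 24.5, 7.10, 1.17, 2.79, 2.74, 90.2, 26.3, 47.4 and 60.8 CPM, against 0.122 to 2.51 CPM. In both genes 9 of the 10 libraries were above every other library and library 94 was not. Genes outside the lists did the same, among them Tnfrsf4 and Tnfsf8. Tnfrsf4 spanned 0.875 to 24.9 CPM in the run, against at most 1.21 CPM in the others. Tnfsf8 spanned 0.583 to 27.4 CPM, against at most 1.96 CPM. The homing receptor Ccr7, which marks naive and central memory cells, had a log2 ratio of 5.38.

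B cell genes had the highest median ratio of the 28 lists. All 22 measured genes were 2-fold higher, with a median log2 ratio of 4.87, between Ighm at 7.51 and Ebf1, a B lineage factor that stromal cells and adipocytes also make, at 1.35. Summed B cell genes spanned 95.4 CPM (library 94) to 6969 CPM (library 97) in the run, against 10.7 to 2564 CPM in the others, where library 74 was the highest. Only 3 libraries of the run (92, 97 and 99) were above library 74, so B cell RNA was not confined to the run.

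Antibody-secreting genes varied by their own pattern. Of 10 measured genes of plasma cells and switched antibody, 8 were 2-fold higher and 0 lower. Jchain, which joins IgA and IgM into multimers, spanned 8.56 to 565 CPM in the run with a median of 122 CPM, against 0.0715 to 195 CPM and a median of 1.31 CPM in the others. Prdm1, a plasma cell factor that other cells also use, differed little at a log2 ratio of −0.12. Ighg2b and Ighg2c, constant parts of IgG antibodies, had ratios of 7.43 and 7.17, with 9.29% and 15.0% of their 31-base words found in other genes too, mostly in each other. Of the genes of the germinal centre, where B cells mutate and are selected, 4 of 8 passed the filter and 3 were 2-fold higher, with S1pr2 at 1.80.

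The mix of antibody classes differed between libraries beyond counting error. Ighm made up 75.3, 82.9, 77.3, 65.5, 74.1, 32.4, 58.6, 69.1, 50.6 and 56.1% of the counts of 7 heavy-chain constant genes in libraries 91 to 100, out of 1483 counts (library 94) to 197539 counts (library 99). Library 96 stood lowest, and Igha, the class of mucosal surfaces, made up 53.8% of its counts (95% Wilson interval 51.7 to 55.9%), against 1.95 to 15.6% in the other 9. Library 99 was the only library of the run with a sizeable share of Ighg3, at 22.3% (22.2 to 22.5%), with at most 0.182% in any of the other 9. In CPM, Igha in library 96 was 41.9, inside the run's span of 9.43 to 403 CPM, and Ighm was the lowest of the run there at 25.3 CPM.

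**Figure D3:**
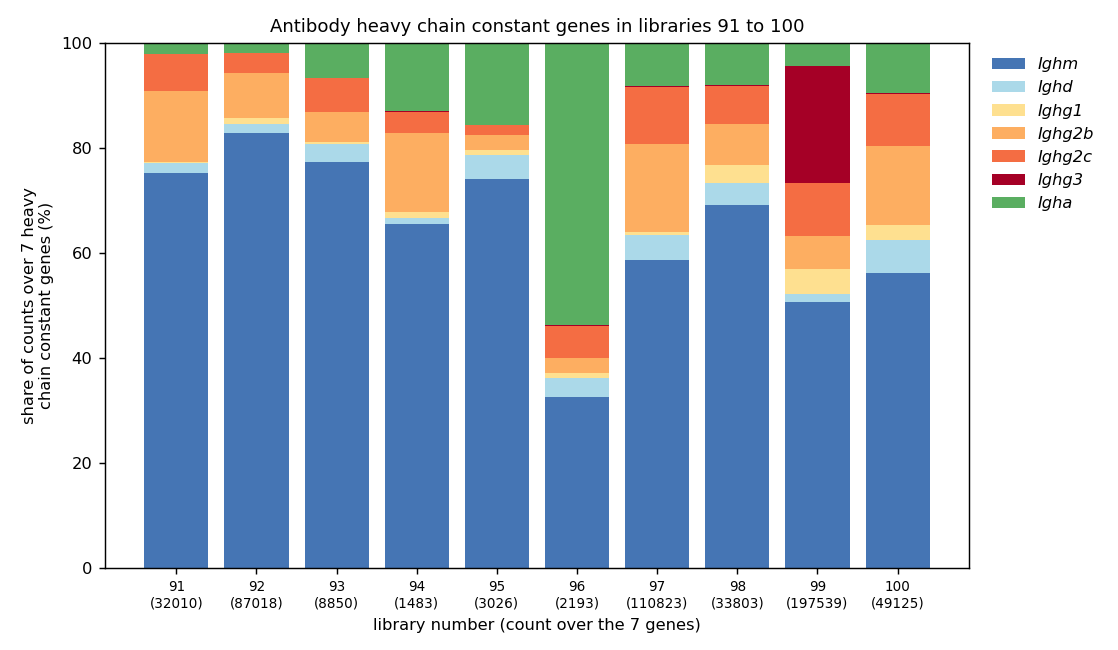
Share (% of counts) of each of the 7 heavy-chain constant genes in libraries 91 to 100, as stacked bars. Igha is the largest class in library 96 at 53.8%, and Ighg3 reaches 22.3% in library 99 only.

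Variable segments, which encode the antigen-binding part of antibodies, were unevenly used. The table holds 7 heavy-chain and 12 kappa segments, a fraction of those in the genome, so shares are of these alone. Among the 7 heavy-chain segments, Ighv4-1 made up 59.6% of 2156 counts in library 91 (Wilson interval 57.5 to 61.7%), Ighv1-18 61.3% of 300 counts in library 96 (55.7 to 66.7%) and Ighv1-9 48.0% of 6824 counts in library 92 (46.8 to 49.2%). In library 97, which had 7667 such counts, the most used segment, again Ighv1-18, made up 19.8%. Among kappa segments, Igkv6-32 made up 54.9% in library 96 and Igkv1-132 41.5% in library 92, against 20.4% for the leading segment in library 97 (Igkv1-110). Related segments share sequence, so reads may be split between them.

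Genes of lymphoid tissue were higher in part. Of 13 genes that passed the filter, 9 were 2-fold higher and 0 lower. The log2 ratio of the summed list was 1.39, but 0.76 without any single one of libraries 92 and 97 to 100, and 0.21 without libraries 97, 99 and 100 together. Ccl19 and Ccl21a, which draw T cells and dendritic cells, had log2 ratios of 5.75 and 4.58, and Cxcl13, which draws B cells, 3.86. Reads of Ccl19 and Ccl21a may be split with close copies, which share 58.8% and 80.6% of their 31-base words. Glycam1, a mucin-like protein of high endothelial vessels, had 29.7, 238, 19.4, 1.41, 14.8, 23.9, 371, 158, 158 and 99.6 CPM in libraries 91 to 100, against 0 to 53.4 CPM and a median of 0.0848 CPM in the others. Library 92 was the second highest for this gene after library 97. Madcam1, the ligand of the mucosal homing receptor, was at 4.19. Genes of lymphatic vessels were not higher: Lyve1 was at −0.62, Prox1 at −0.54 and Flt4 at −0.46.

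Inflammatory chemokines and their receptors were at least 2-fold higher for 13 of the 14 genes that passed the filter, of 18 with deposited counts. Cxcl9, which draws activated T cells and is induced by interferon gamma, had 66.6, 122, 45.3, 4.28, 14.01, 11.7, 387, 146, 223 and 334 CPM in libraries 91 to 100, against 0 to 20.4 CPM and a median of 0.273 CPM in the others. Cxcl10, its relative, had a log2 ratio of 4.19. Set against Ptprc in the same library, Cxcl9 varied little within the run, at ratios of 0.431 to 0.771. The others had a median of 0.0474 but reached 1.74. Cx3cl1, a membrane-bound chemokine, was the member that was not higher, at −0.24.

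MHC class II genes, whose products present antigen to helper T cells, were at least 2-fold higher in the run for 11 of 14 measured genes, with a median log2 ratio of 3.78. H2-Aa had 421, 821, 279, 62.9, 156, 126, 1837, 712, 1185 and 1712 CPM in libraries 91 to 100, against 11.3 to 222 CPM and a median of 44.7 CPM in the others. H2-Eb1 had 421, 723, 256, 55.3, 139, 113, 1729, 701, 1099.7 and 1560.1 CPM, against 0.534 to 298 CPM and a median of 34.7 CPM. Libraries 94, 95 and 96 were again the lowest and lay within the range of the others for both genes, as did library 93 for H2-Eb1. In every library of the run the ratio of H2-Eb1 to H2-Aa was between 0.879 and 1.00. The others had a median of 1.03 and spanned 0.0131 to 1.34, so the run lay inside their range. Ciita, the coactivator that switches class II genes on, had a median of 42.5 CPM in the run, against 1.46 CPM in the others. The factors that hold Ciita on class II promoters differed little, with Rfx5 at 0.13, Rfxap at −0.07 and Rfxank at 0.44. H2-DMb2, which helps exchange the peptide, had the largest ratio at 5.59, with 36.6% of its 31-base words shared, mainly with H2-DMb1.

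Class II genes move together in part through shared promoter elements, the S, X and Y boxes, on which the RFX and NF-Y complexes assemble before Ciita joins them. The 250 bases before the RefSeq start of H2-Aa and H2-Eb1 (GRCm38.p6) are shown because these genes encode chains of the 2 classical class II molecules, with the letters CTGATTGG, the core of the Y box, in capitals.
H2-Aa, chr17:34287824-34288073, minus strand: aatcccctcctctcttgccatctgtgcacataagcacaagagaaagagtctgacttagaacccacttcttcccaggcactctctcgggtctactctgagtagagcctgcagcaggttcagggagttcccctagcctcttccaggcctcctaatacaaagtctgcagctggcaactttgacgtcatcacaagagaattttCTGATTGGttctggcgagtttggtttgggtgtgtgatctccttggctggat
H2-Eb1, chr17:34305617-34305866, plus strand: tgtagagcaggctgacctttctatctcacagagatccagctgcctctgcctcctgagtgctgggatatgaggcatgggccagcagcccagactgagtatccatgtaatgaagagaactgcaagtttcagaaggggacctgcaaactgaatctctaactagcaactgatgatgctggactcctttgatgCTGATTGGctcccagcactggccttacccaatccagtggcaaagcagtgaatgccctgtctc
Those letters begin 51 bases before the start of H2-Aa and 62 bases before that of H2-Eb1. On either strand, 4 of the 10 genes of the list with a RefSeq entry held them (H2-Aa, H2-Eb1, H2-Eb2 and H2-Oa), beside 3.83% of all 32851 promoter entries. A match describes the letters only and does not show that the box was in use in these islets.

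MHC class I genes and the machinery that feeds them were higher by less. Of 16 measured genes, 13 were 2-fold higher, with a median log2 ratio of 1.73. The log2 ratio of the summed list was 1.92, and 0.72 without libraries 97, 99 and 100. B2m, the invariant light chain, had 582, 996, 333, 86.6, 189.8, 140.5, 2313, 962, 1682 and 2044 CPM in libraries 91 to 100, against 19.9 to 631 CPM and a median of 65.3 CPM in the others. Libraries 91 and 93 to 96 lay inside that range, and 23 of the others were above library 94. Nlrc5, the class I counterpart of Ciita, had the largest ratio at 5.06, and Erap1, which trims peptides, the smallest at 0.26. H2-K1 and H2-D1, the classical heavy chains, were at 1.53 and 2.21, but they share 22.8% and 26.9% of their 31-base words with other genes and differ in sequence between mouse strains, so their counts are uncertain.

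Interferon-response genes were at least 2-fold higher for 22 of 25 measured genes, with a median log2 ratio of 1.87. The largest ratios were in Iigp1 (5.03) and Gbp2 (4.70), GTPases of defence inside cells that interferon gamma induces. Ifit1 and Isg15, often tied to type I interferon, were at 1.44 and 1.80. Irf1 (0.53) and Mx2 (0.38) did not reach 2-fold.

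Macrophage genes were higher too, by less than those of lymphocytes. Of 18 genes that passed the filter, 16 were 2-fold higher, with a median log2 ratio of 2.16. Lyz2, lysozyme of macrophages and neutrophils, spanned 20.4 to 1733 CPM in the run with a median of 289 CPM, against 3.14 to 99.6 CPM and a median of 13.2 CPM in the others, with 32.8% of its 31-base words shared with Lyz1. Csf1r, the growth factor receptor of macrophages, had a ratio of 2.21, and 68 of the others exceeded the lowest library of the run. Trem2, a lipid receptor of tissue macrophages, was at 0.15. The dendritic cell list was at least 2-fold higher for 9 of the 10 genes that passed the filter, of 13 with deposited counts. Flt3, their growth factor receptor, had 7.38, 22.1, 6.43, 0.924, 3.34, 3.45, 43.5, 17.6, 26.0 and 54.3 CPM in libraries 91 to 100, and Cd40, the receptor that T cells engage on dendritic and B cells, spanned 2.72 to 59.5 CPM. For both, 9 of the 10 libraries were above all others, as for Ctla4 and Lag3. No other gene of the immune lists came that close, and 0.164% of all genes did.

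Relative to Ptprc in the same library, the immune genes did not all shift alike. Csf1r per Ptprc was 0.306 (library 97) to 0.931 (library 94) in the run, with a median of 0.429. The others had a median of 2.38 and spanned 0.299 to 4.44. Cd3e per Ptprc was 0.0441 (library 94) to 0.169 (library 91), against a median of 0.0163 and a span of 0 to 0.160 in the others. Relative to Ptprc, the run thus held more Cd3e and less Csf1r than the typical other library. For both ratios the others' range reached into or past the run's span. Lyz2 per Ptprc differed little, with a median of 2.27 in the run (1.77 to 3.17) and 2.36 in the others (0.233 to 5.90). The lower Csf1r ratio is thus not a statement about macrophage genes as a class. Library 94 was the nearest to the others' medians in its Csf1r and Cd3e ratios. Cd8a per Cd4 was lowest in libraries 96, 94 and 95, at 0.286, 0.333 and 0.341, and highest in library 97, at 0.611. Foxp3, the factor of regulatory T cells, lies on the X chromosome and so is not among the autosomal genes counted. It stood at 0.121 to 0.220 per Cd4 in the run, against a median of 0.268 in the 70 others with at least 3 Cd4 counts.

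Genes of cell division were at least 2-fold higher for 14 of 16 members, at a median log2 ratio of 1.57. The log2 ratio of their summed CPM was 1.18, but 0.55 without any single one of libraries 92 and 97 to 100, and 0.17 without libraries 97, 99 and 100 together. Mki67, a marker of dividing cells, spanned 4.28 to 125 CPM in the run with a median of 24.9 CPM, against 0.889 to 29.9 CPM and a median of 4.63 CPM in the others. Library 97 was highest and library 94 lowest, as for most immune genes. Mki67 per Ptprc was lower in the run (0.138 to 0.431) than in the median of the others (0.853), which reached down to 0.0835. Which cells divided was not tested.

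Acinar genes were high in other libraries than the immune genes. The summed acinar list made up 18.4, 3.57, 36.9, 27.9, 32.98, 17.1, 4.49, 11.0, 4.19 and 5.16% of all counts in libraries 91 to 100, against 0.294 to 46.8% and a median of 6.85% in the others. Libraries 93, 94 and 95 were highest, and libraries 97, 99 and 100, the richest in immune RNA, were below the others' median. The median was at least 2-fold higher in the run for 15 of the list's 20 genes, but without libraries 94, 95 and 96 the log2 ratio of its sum was −0.41 in place of 1.03. The amylase genes went opposite ways, Amy2b at 3.72 and Amy2a3 at −1.94, but 60.4% and 100% of their 31-base words occur in other genes, so these values are uncertain.

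Beta cell genes were lower by a little throughout. The 24 genes of the list together made up 14.9, 17.0, 8.22, 13.1, 9.44, 17.5, 8.24, 15.5, 12.4 and 13.4% of counts in libraries 91 to 100, all below the others' median of 19.7% but within their range of 6.55 to 26.0%. All 24 had a lower median in the run, with log2 ratios between −1.05 (Glp1r, the incretin receptor) and −0.30 (Mafa, a factor that drives insulin transcription). The insulin genes Ins1 and Ins2 were at −0.42 and −0.58. Set against Ins2 in the same library, Mafa was 0.00100 to 0.00188 in the run, against a median of 0.00111 in the others, and Ucn3, a maturity marker, 0.00140 to 0.00403, against 0.00320. The share of beta cell genes was lowest in libraries 93, 97 and 95, of which 93 and 95 were rich in acinar RNA and 97 in immune RNA. Since CPM sum to the same total in each library, a lower share cannot be told apart from a higher share of other RNA.

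**Figure D4:**
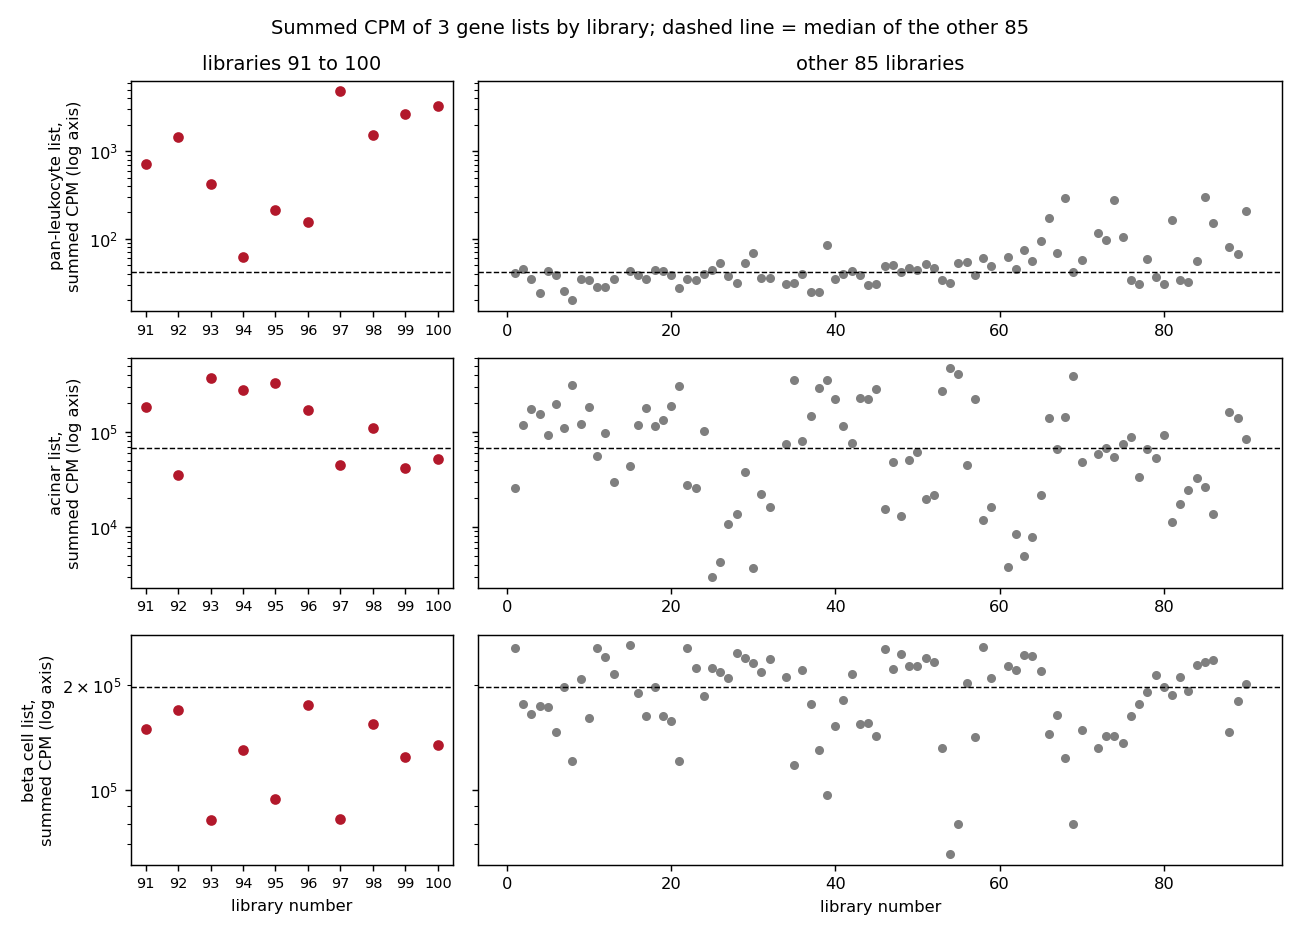
Summed CPM (log axes) of the pan-leukocyte, acinar and beta cell lists by library number, with libraries 91 to 100 left of the other 85 and the others' median dashed. Pan-leukocyte sums in the run span 62.3 CPM (library 94) to 4789.5 CPM (library 97), and libraries 93, 94 and 95 have the highest acinar sums of the run.

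Other endocrine genes were mixed. Ppy, Pyy and Ghrl, the peptides of PP and epsilon cells, had log2 ratios of −1.60, −1.27 and −1.83, and Ttr, a transport protein abundant in alpha cells, −1.35. Glucagon (Gcg) was at −0.49 and somatostatin (Sst) at 0.31, both short of 2-fold. Pdyn and Hhex, a neuropeptide precursor and the transcription factor of delta cells, were at 1.30 and 1.14. The log2 ratio of the summed delta, PP and epsilon list was −0.25, but 0.31 without libraries 94, 95 and 96.

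Among supporting cells, 10 of 14 genes of fibroblasts and matrix were 2-fold higher, with Fn1 (fibronectin) at 3.37, Vim (vimentin, which leukocytes also make) at 3.12 and Pdgfra, a receptor for platelet-derived growth factor on fibroblasts, at 2.93. Col1a1, a chain of the main fibrillar collagen, spanned 15.4 to 226 CPM in the run, against 3.64 to 154 CPM in the others, with library 94 the lowest of the run. The summed list was lowest in library 94, at 432 CPM, and highest in library 97, at 3204 CPM, the libraries lowest and highest for most immune genes. Its log2 ratio was 1.18, but 0.12 without libraries 97, 99 and 100. General endothelial genes were not higher, unlike Glycam1 of high endothelial vessels above. Of 10 such genes, 0 were 2-fold higher and 2 lower, Flt1 at −1.04 and Emcn at −1.13. In duct genes 4 of 12 were 2-fold higher, led by Cftr, the chloride channel, at 1.80. Ngfr, the neurotrophin receptor of Schwann and stromal cells, was at 2.81. Of 16 genes of the unfolded protein response and 14 of oxidative phosphorylation, 0 were 2-fold higher or lower, with medians of −0.13 and −0.05. Of the Reg and acute phase genes, 6 of 7 were 2-fold higher, but Reg3b reached 1115 CPM in the others (library 89), against 154 CPM at most in the run.

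On CPM, none of the genes of the immune lists put all 10 libraries beyond the other 85, though Cd40 did so on other scales given below. On that scale 6 genes had all libraries of the run above every other library with a 2-fold higher median (0.0393% of 15281), and 11 had all below with a 2-fold lower median (0.0720%). Higher genes could pass the filter through the run alone. With at least 1 CPM required in 50 libraries, 3 of the 6 higher and all 11 lower genes remained. The 6 higher and 11 lower genes are named by their positions on GRCm38, per the deposited gene table.

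Pdlim4, an actin-associated PDZ and LIM domain protein (chr11:54054928-54069014), had 14.4, 17.7, 6.91, 7.05, 4.87, 11.3, 26.6, 17.4, 24.7 and 22.9 CPM in libraries 91 to 100, against 0.158 to 1.87 CPM and a median of 0.582 CPM in the others, a 27.4-fold higher median. Library 94, poor in immune RNA, also stood above all others, and the part of immune RNA in these values was not tested. Psmc3ip, a partner of the recombinases of meiosis (chr11:101091823-101095436), spanned 4.65 to 10.1 CPM, against 0.234 to 1.88 CPM. It overlaps the end of Mlx on the other strand, and Mlx itself had medians of 34.5 CPM in the run and 32.4 CPM in the others. Gm42974, an unclassified gene model (chr3:127137837-127140490), spanned 26.4 to 79.3 CPM, against 0.908 to 15.2 CPM. It lies within Ank2 on the same strand, while Ank2 was at −0.54. Chn2, which switches off the small GTPase Rac (chr6:54039554-54301810), spanned 2.84 to 13.0 CPM, against 0.199 to 2.57 CPM.

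Within the run, the 2 other higher genes were highest where acinar RNA was high. Greb1, known as an oestrogen-induced gene (chr12:16670615-16800886), had 7.93, 2.85, 12.3, 12.1, 24.5, 9.59, 2.10, 6.04, 2.06 and 2.35 CPM in libraries 91 to 100, against 0 to 1.42 CPM in the others. Rnf225, a RING finger protein (chr7:12927416-12931072), had 6.06, 1.89, 14.2, 11.9, 9.31, 5.47, 1.80, 4.80, 2.00 and 2.25 CPM, against 0.0773 to 1.54 CPM. Both were highest in libraries 93, 94 and 95 and lowest in 92, 97, 99 and 100, which had the highest and the lowest acinar shares of the run. The highest of the others for both was library 39, with a summed acinar list of 353575 CPM. Libraries 54 and 55 had the highest acinar sums of the others, at 468312 and 404797 CPM. Greb1 stood there at 0.133 and 0.196 CPM, below the others' median of 0.284 CPM. Rnf225 was at 0.265 and 0.556 CPM in these 2 libraries, beside a median of 0.382 CPM. The part of acinar RNA in these values was not tested.

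**Figure D5:**
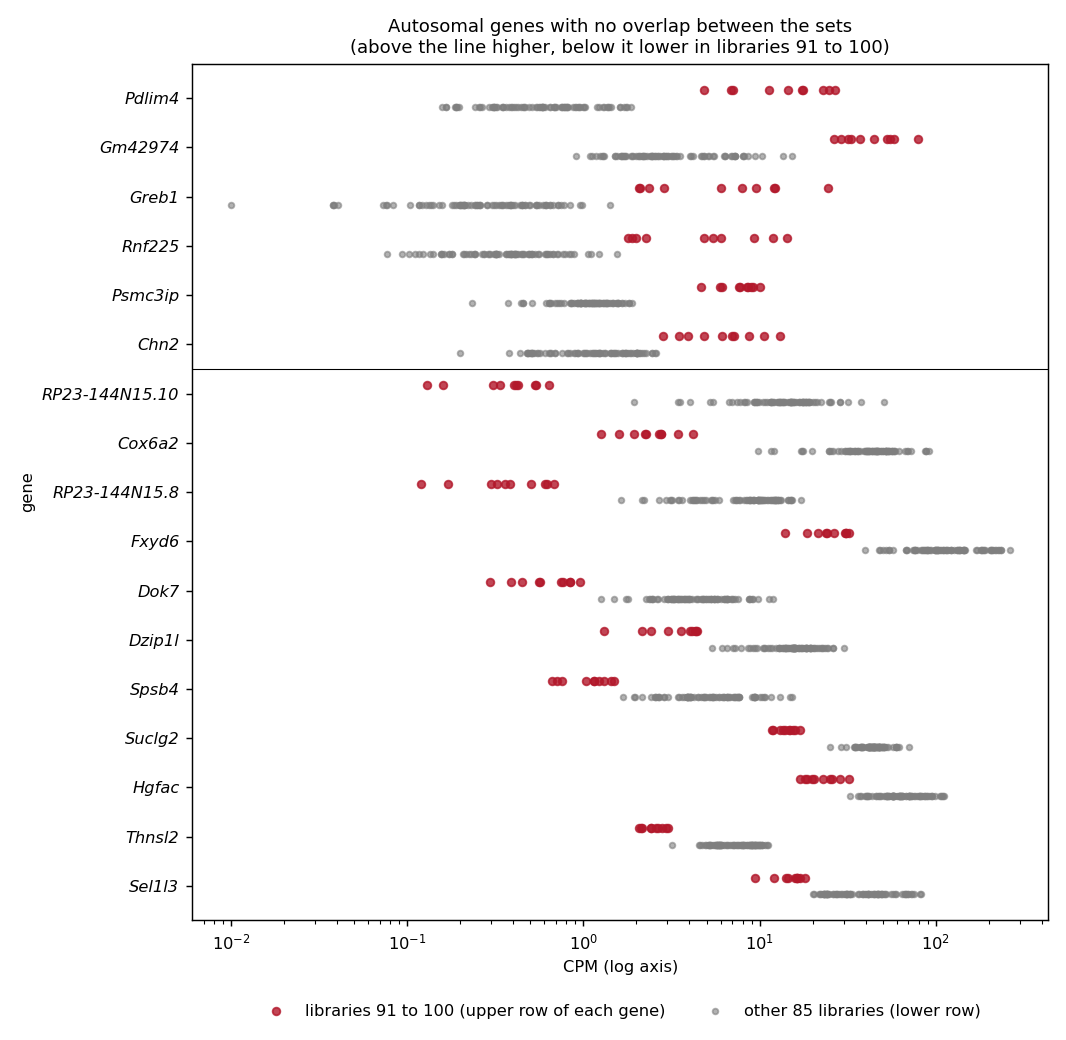
CPM (log axis) of the 6 higher and 11 lower genes that keep libraries 91 to 100 apart from the other 85, with the run in the upper row and the others in the lower row of each gene, one point per library, and values below 0.01 CPM drawn at 0.01. Cox6a2 spans 1.26 to 4.19 CPM in the run, against 9.85 to 90.9 CPM in the others, and Pdlim4 spans 4.87 to 26.6 CPM, against 0.158 to 1.87 CPM.

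The lowest genes included neighbours on chromosome 7. Cox6a2, the heart and muscle form of a cytochrome c oxidase subunit (chr7:128205435-128206387), had 2.70, 2.23, 1.26, 2.77, 1.95, 2.77, 3.46, 1.59, 2.26 and 4.19 CPM in libraries 91 to 100, against 9.85 to 90.9 CPM and a median of 43.7 CPM in the others. RP23-144N15.8, a non-coding gene 2.11 kb away (chr7:128192050-128203328), spanned 0.119 to 0.681 CPM, against 1.63 to 17.1 CPM, and shares 19.8% of its 31-base words with Itgad. RP23-144N15.10, an antisense gene 9.23 kb from Cox6a2 (chr7:128215616-128220788), spanned 0.129 to 0.640 CPM, against 1.94 to 50.6 CPM. All 3 lie within the span of Itgad, an integrin chain of myeloid cells, on the other strand. Without strand information, reads from stretches they share with Itgad cannot be told apart. Of their 31-base words, Cox6a2 shares 6.15% with Itgad, and RP23-144N15.10 shares 2.54% with any other gene. Itgad itself was at −0.80, whereas the nearby integrin genes Itgax and Itgam were higher in the run, at 3.68 and 2.36. The values of all 3 lower genes were low in library 97 and in library 94 alike, the libraries highest and lowest for most immune genes. The part of immune RNA in these values was not tested.

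A further pair of lower genes were neighbours on chromosome 5. Dok7, an adaptor of the muscle receptor kinase MuSK (chr5:35056766-35087839), spanned 0.296 to 0.959 CPM, against 1.26 to 11.9 CPM in the others. Hgfac, a protease that activates hepatocyte growth factor (chr5:35041509-35048461), lies 8.31 kb away and spanned 17.1 to 32.4 CPM, against 32.7 to 112 CPM, so that the groups only just fail to meet. Suclg2, the GTP-forming subunit of succinyl-CoA ligase in the citric acid cycle (chr6:95473009-95718800), had 15.9, 16.9, 11.9, 11.7, 13.1, 15.5, 14.02, 13.6, 14.6 and 14.8 CPM in libraries 91 to 100, against 24.9 to 70.2 CPM, a narrow spread within the run beside a median of 44.4 CPM in the others.

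Fxyd6, a regulator of the sodium pump (chr9:45370185-45396158), spanned 13.9 to 32.3 CPM in the run, against 39.8 to 262 CPM in the others. On the same chromosome, Dzip1l, a protein of the primary cilium (chr9:99629496-99669256), spanned 1.30 to 4.41 CPM, against 5.35 to 30.0 CPM, and Spsb4, a substrate adaptor of a ubiquitin ligase (chr9:96943482-97018843), 0.661 to 1.49 CPM, against 1.68 to 15.3 CPM. Sel1l3, a Sel1-repeat protein (chr5:53107083-53213927), spanned 9.42 to 18.0 CPM, against 20.2 to 82.0 CPM. Thnsl2, a threonine synthase-like enzyme (chr6:71128166-71144439), spanned 2.07 to 3.00 CPM, against 3.17 to 11.1 CPM. Its neighbour Rpl34-ps1, a ribosomal protein pseudogene 3.20 kb away, had medians of 30.2 CPM in the run and 0.0534 CPM in the others, but all of its 31-base words occur in other genes, so its counts are uncertain.

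How a library's total was scaled mattered for this set. Under each of 4 scales (CPM, CPM rescaled with edgeR's TMM factors, CPM on totals without acinar and endocrine genes, and the deposited variance-stabilised values) 3 of the 6 higher genes (Pdlim4, Gm42974 and Psmc3ip) and 7 of the 11 lower genes were called (Cox6a2, both RP23-144N15 genes, Fxyd6, Dzip1l, Suclg2 and Hgfac). Dok7 kept the run apart on every scale but differed by less than 1 unit on the variance-stabilised scale. Greb1, Rnf225, Chn2 and Sel1l3 were called on CPM alone. Over the 4 scales, 19 higher and 30 lower genes were called on at least 1. Among those not called on CPM, Cd40 and the class I genes H2-M2 and H2-Q2 were called with TMM, at log2 ratios of 3.27, 5.09 and 2.44, and on the variance-stabilised values. Reads of H2-M2 and H2-Q2 may be split with related class I genes. With 9 of the 10 libraries required to lie beyond all others, 25 genes were higher and 13 lower (0.0851%). The 2 lower genes this added were Crym, a thyroid hormone binding protein, and Fam179a.

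Outside the lists, the genes with the largest ratios were mostly immune or inflammatory. Serpina3g, a protease inhibitor of activated T cells and macrophages, had a log2 ratio of 6.36 and spanned 2.83 to 249 CPM in the run, against at most 7.02 CPM in the others. Dnase1l3, a secreted nuclease of dendritic cells and macrophages, was at 5.90. C3, the central complement protein, spanned 45.6 to 1871 CPM with a median of 535 CPM, against 2.53 to 372 CPM and a median of 8.55 CPM. Spib, a B and plasmacytoid dendritic cell factor, was at 5.57, Itgb7, a chain of the gut homing integrin that binds Madcam1, at 5.44, and Ubd, a ubiquitin-like protein induced by interferon gamma, at 5.43. The widest differences within the run were in antibody segments and lymphocyte genes: Igkv1-132 spanned 7.71 log2 units, Ighv1-9 7.39, Ms4a4b, a T cell membrane protein, 7.33, and Gimap3, a GTPase of lymphocyte survival, 7.14.

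Of the unlisted genes with the lowest ratios, several have close copies. Rps25-ps1 (−4.18), H2-T22 (−3.61), Hist2h2aa1 (−3.39) and Ahcy (−2.88) share 67.4 to 100% of their 31-base words with other genes, and their counts may be split between copies. H2-Ea-ps, annotated as a polymorphic pseudogene of the class II E alpha chain (chr17:34342933-34344643), shares none. It spanned 0 to 0.307 CPM in the run with a median of 0.0820 CPM, against 0 to 115 CPM and a median of 7.64 CPM in the others. It thus was near 0 in libraries where H2-Aa and H2-Eb1 were high. This was not particular to the run: 37 of the other 85 libraries lay below its highest value, 14 of them at 0.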

How the data were processed

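Polyadenylated RNA from islets was sequenced, per the labels' protocols, after ERCC spike-in RNA had been added. The values used are estimated counts per gene deposited by the authors for 95 libraries, of which 67.7% are whole within 1e-06, and log2-scale variance-stabilised values that the authors deposited beside them. Per the submitters' processing notes, GRCm38 and DESeq2 were used; the aligner, the counter, the annotation release and the use of strand are not given in the sources used here. Gene positions come from the authors' deposited gene table.

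Columns were matched to samples by title number, and 0 columns were without a sample. CPM was the count divided by the column sum. Of 19919 autosomal genes among 20638, 15281 with at least 1 CPM in at least 10 libraries were kept. A gene was called higher where all 10 libraries of the run exceeded the other 85 and the ratio of medians, each plus 0.5 CPM, was at least 2, and lower in the mirror case. No test was made, since the labels put no library in a group and its values chose the run. No pair of run libraries was alike within counting noise: the lowest chi-square per degree of freedom was 29.0. Alternatives covered TMM scaling (edgeR 4.0.16, R 4.3.3), totals without acinar and endocrine genes, variance-stabilised values, low-value filters, pseudocounts, libraries left out and narrower sets of others. Python 3.11.15 with pandas 2.3.3, numpy 2.4.6 and scipy 1.17.1 was used, and the calling was tested on simulated data.

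The run, the gene lists and the markers were chosen with earlier results of these data known. Genes were named by rule: those that separate the run, the extremes of ratio inside and outside the lists, the widest spans within the run and leading antibody segments, and members that describe a list by role; not every gene that meets the rule is described. A few genes that meet it are not reported here. Near misses, neighbours and genes of the ratios were picked after their values were seen. Promoters are from RefSeq (GRCm38.p6). Overlap with other genes was measured as the share of 31-base words of a gene's transcripts (GENCODE M21) that occur in another gene.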

Additional observations from a re-analysis of the deposited data

Results flagged for a closer look

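In 6 of 54 gene and list values checked, 1 library of the run stood apart from the other 9, with the gap to its nearest neighbour taking more of the whole range than Dixon's 95% critical value for 10 values allows. That critical value assumes normally distributed values, which these CPM need not be. The flags therefore only point out libraries, and no rate of flags by chance is given. Ighg3 was 1422 CPM in library 99, where the next value was 3.64 CPM in library 97. Ighg1 was 300.3 CPM in library 99 and 46.2 CPM in the next, library 98. Ighg2b was 813 CPM in library 97 and 394 CPM in library 99. Ighd, the constant part of IgD on mature B cells, was 231 CPM in library 97 and 102 CPM in library 99. Cd3e was 88.1 CPM in library 97 and 46.0 CPM in library 100. Greb1 was 24.5 CPM in library 95 and 12.3 CPM in library 93, which had the highest acinar share. The causes were not tested.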

How the results depend on the processing

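The counts of 6 higher, 11 lower, 1596 2-fold higher and 307 2-fold lower genes depended on scaling and on which libraries entered. Genes with the whole run above all others numbered 16 with TMM, 12 with variance-stabilised values, 3 with at least 1 CPM in 50 libraries, 17 against the others numbered above 50, 25 with 9 of 10 libraries beyond all others, and 10 against the others without libraries 86 to 90. Without library 94 there were 22, and without 94, 95 and 96 there were 268. Genes with the whole run below all others numbered 24 with TMM, 25 on totals without acinar and endocrine genes, 17 with variance-stabilised values and 27 against the others numbered above 50. Genes 2-fold higher numbered 933 with variance-stabilised values, 976 under the stricter filter and 1010 without libraries 97, 99 and 100. Genes 2-fold lower numbered 69 with variance-stabilised values, 178 with a pseudocount of 2 CPM and 489 against the others numbered above 50. The log2 ratio of the acinar sum reversed to −0.41 without libraries 94, 95 and 96, and that of the Schwann cell and neuron sum became −0.17 without libraries 97, 99 and 100, against 0.63 with them. The cause was not tested, beyond the smaller sets that these settings use. Leaving out each library in turn gave 6 to 22 higher, 11 to 12 lower, 1363 to 1827 2-fold higher and 247 to 399 2-fold lower genes. Without libraries 97, 99 and 100 the log2 ratios of the summed immune lists were lower too, among them 4.31 in place of 6.10 for B cells, 0.72 in place of 1.92 for MHC class I and 0.21 in place of 1.39 for lymphoid tissue. Fibroblast genes stood at 0.12 there in place of 1.18, and cell division at 0.17 in place of 1.18. Without 94, 95 and 96 the delta, PP and epsilon sum was at 0.31 in place of −0.25 and that of oxidative phosphorylation at 0.16 in place of −0.09. The sets without 94, 95 and 96 and without 86 to 90 were chosen after seeing the data. No paired analysis was possible because the labels place no library in a group. Cd3e in library 94 rests on 9 counts, so low values there are imprecise.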
